A study of Homo sapiens with 6 samples.

Results

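Lysosome and autophagy genes linked to the MITF and TFE transcription factors were followed in 92.1 cells, an established human uveal melanoma line. The cells had been given VS-4718 at 1 µM or DMSO vehicle for 2 h. VS-4718 blocks focal adhesion kinase, an enzyme of cell-matrix contacts. Each group held 3 libraries of total RNA, and all 6 came from the same line, grown in RPMI-1640 with FBS. The set was taken by gene symbol: 52 genes were listed, and 50 of them had a row among the 12306 gene rows of the table. GLA, a lysosomal galactosidase, and MAP1LC3B, an LC3 protein of the autophagosome, were not found among the rows analysed here. The samples are described as independent, but separate cultures are not named, so the p-values may rest on technical spread alone.

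Lysosomes break down proteins, lipids and sugars with hydrolases that need an acid lumen. A proton pump, the V-ATPase, makes that lumen: its V1 sector splits ATP in the cytosol and its V0 sector carries protons through the membrane. The related factors MITF, TFEB and TFE3 switch on pump, hydrolase and autophagy genes through short E-box elements, and MITF is also the master factor of melanocytes. The kinase complex mTORC1 sits on the lysosome when Rag GTPases and the Ragulator scaffold sense nutrients there, and it then holds TFEB and TFE3 in the cytoplasm.

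The E-boxes in these promoters are shown first, because MITF, TFEB and TFE3 read them. RefSeq promoter windows (GRCh38.p14, 250 bases before to 50 after a start) were found for 40 of the 52 genes. The letters CACGTG, which read the same on both strands, stood in a window of 13 of these 40 (32.5%), against 8.77% of all 27305 genes with a window. The longer form TCACGTGA, which contains those letters, stood in 6 of the 40 (15%), against 1.18% of all genes. The genes were listed for their link to these factors, so such shares may follow from how the list was made. The windows below hold 30 bases around a match, on the strand of the gene, with CACGTG in capitals. They are the windows wholly before the start that hold the longer form, from 6 genes, and both windows of ATP6V0B, a pump gene described further on. Matches of CACGTG outside the longer form in CTSA and LAMP1, and those near the start in LAMP1 and MCOLN1, are not printed.
ATP6V0D1 (chr16:67481199-67481228, minus strand): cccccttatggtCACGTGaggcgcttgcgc
ATP6V1G1 (chr9:114587699-114587728, plus strand): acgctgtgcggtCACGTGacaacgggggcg
CTSA (chr20:45891298-45891327, plus strand): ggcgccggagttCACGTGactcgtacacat
GAA, far site (chr17:80101493-80101522, plus strand): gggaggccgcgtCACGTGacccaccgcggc
GAA, near site (chr17:80101538-80101567, plus strand): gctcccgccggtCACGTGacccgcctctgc
LAMP1 (chr13:113297199-113297228, plus strand): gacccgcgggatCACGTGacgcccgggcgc
MCOLN1 (chr19:7522571-7522600, plus strand): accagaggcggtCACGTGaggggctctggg
ATP6V0B, far site (chr1:43974891-43974920, plus strand): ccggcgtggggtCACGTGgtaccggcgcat
ATP6V0B, near site (chr1:43974909-43974938, plus strand): gtaccggcgcatCACGTGggcgagttaggt
All 9 matches of the longer form in the windows of these genes, the printed ones among them, began within 100 bases before a start. Matches are descriptions of these letters and not measured sites of binding.

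Values are on a log2 scale of TPM-like units, that is, of abundance per transcript length within a fixed total, so the read depth of the libraries is unknown. Put back on the linear scale, the libraries summed to between 836696 and 840714 with VS-4718 and between 836527 and 837670 in vehicle. Of 18 markers of the melanocyte lineage, 15 had a row, and their linear values summed to between 7210 and 7897 with VS-4718, against 7439 to 8006 in vehicle. Most of each sum came from PMEL (geometric mean 4839 with VS-4718 and 4746 in vehicle) and TYRP1 (2262 with VS-4718 and 2373 in vehicle). MLANA, TYR and MC1R, which belong to that list, stayed below 0 on the log2 scale in all 6 libraries. DCT and RAB38, also listed, were low as well, with log2 means of 0.39 and -0.77 with VS-4718 and 0.63 and -0.47 in vehicle. Rows of immune markers (2 of 10 present) summed to at most 0.177 in VS-4718 libraries and 0.158 in vehicle libraries. The fibroblast rows (6 of 8), endothelial rows (2 of 6) and epithelial rows (1 of 6) summed to at most 2.56, 8.60 and 0.473 with VS-4718, against 2.45, 7.56 and 0.501 in vehicle. The row names follow mouse usage although the sources name a human build, and a row's level describes that row only.

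None of the lysosome and autophagy genes passed the test between VS-4718 and vehicle. The test was limma across all rows, with Benjamini-Hochberg adjusted p-values, and 46 of the 50 rows were abundant enough for it. Of those 46, 0 passed an adjusted p of 0.05, while 12 of all 9229 tested rows did (0.13%). The smallest adjusted p among the 46 was 0.401. At an unadjusted p under 0.05 there were 5 of the 46 (10.9%), against 9.76% of all tested rows. Of these, 4 were lower with VS-4718 (ATP6V0B, ATP6V1H, SQSTM1 and FNIP2), where 6.74% of all rows were, and GABARAPL1 was higher, where 3.02% of all rows were. A share this near the background is not a result about these genes. In bulk RNA, fewer cells of a kind and less RNA per cell cannot be told apart.

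The differences were small as well as below the threshold. Means were lower with VS-4718 in 23 of the 46 rows and higher in 23, with a median log2 fold change of -0.0030. Over all tested rows 58.2% had a lower mean, with a median of -0.03. The difference was under 0.1 log2 units in 35 of the 46 (76.1%), against 46.4% of all tested rows. These genes were also more abundant than most, with a median level of 5.91 log2 units against 3.99 over all tested rows. Among rows above 5.91 it was under 0.1 in 19 of 23 (82.6%), against 68.9% of all such rows. The 95% interval of the difference stayed within 1.5-fold either way in 43 of the 46, and in 70.3% of all tested rows. The 3 wider intervals belonged to CD63 and ULK1, which had low and variable values, and to FNIP2.

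**Figure D1:**
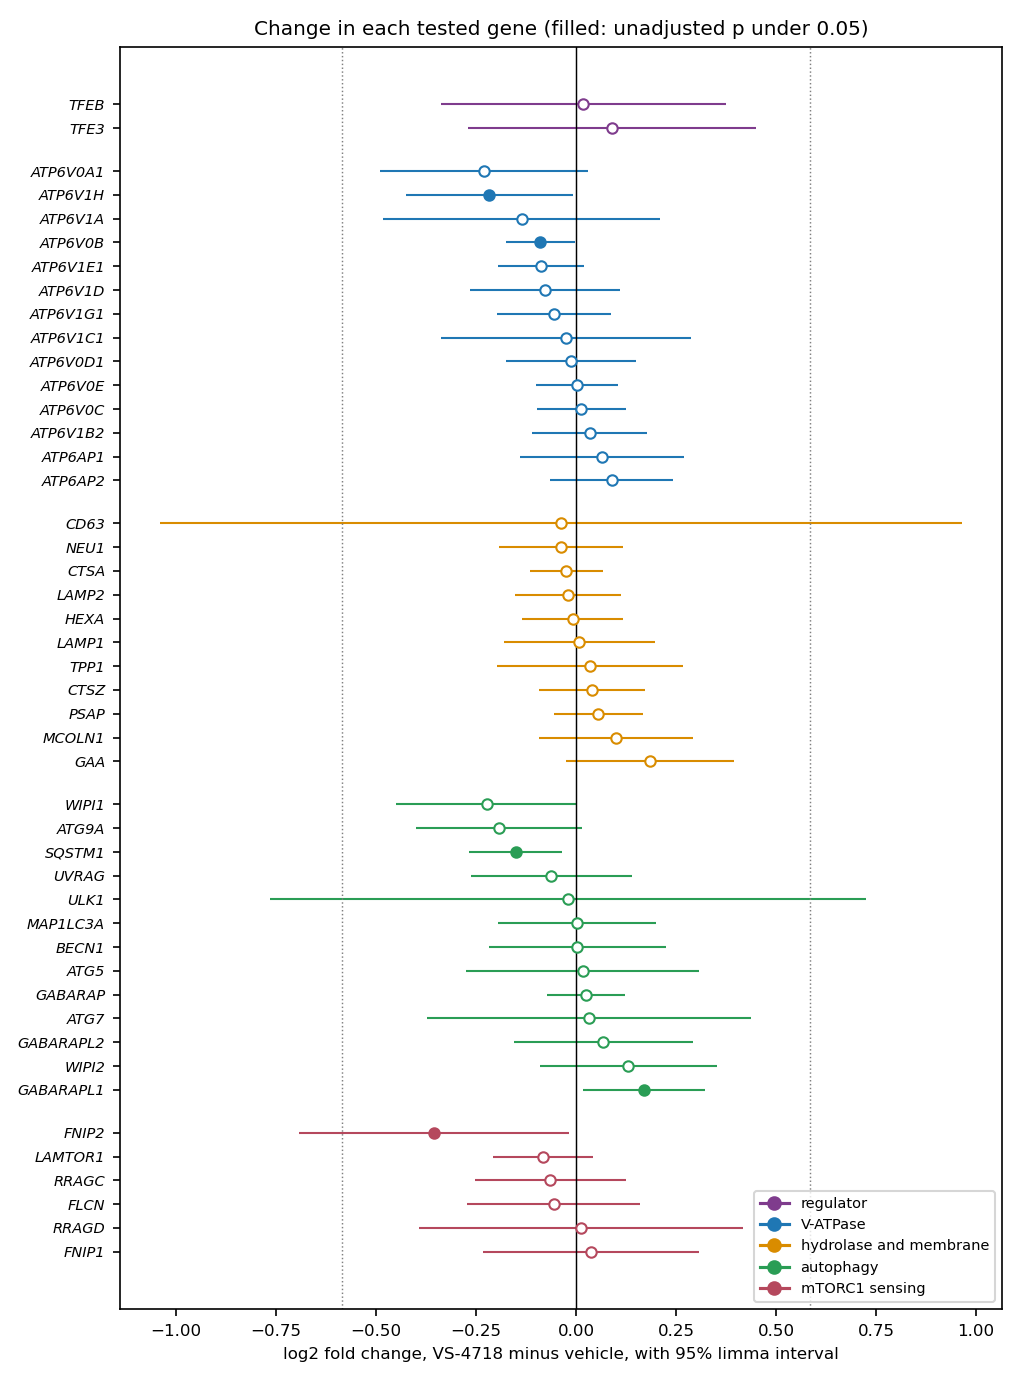
Log2 fold change (VS-4718 minus vehicle) of the 46 tested genes with its 95% limma interval, by role from top to bottom; filled points have an unadjusted p under 0.05 and dotted lines mark a 1.5-fold change. The points lie between -0.35 and 0.19, and 5 are filled.

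**Figure D2:**
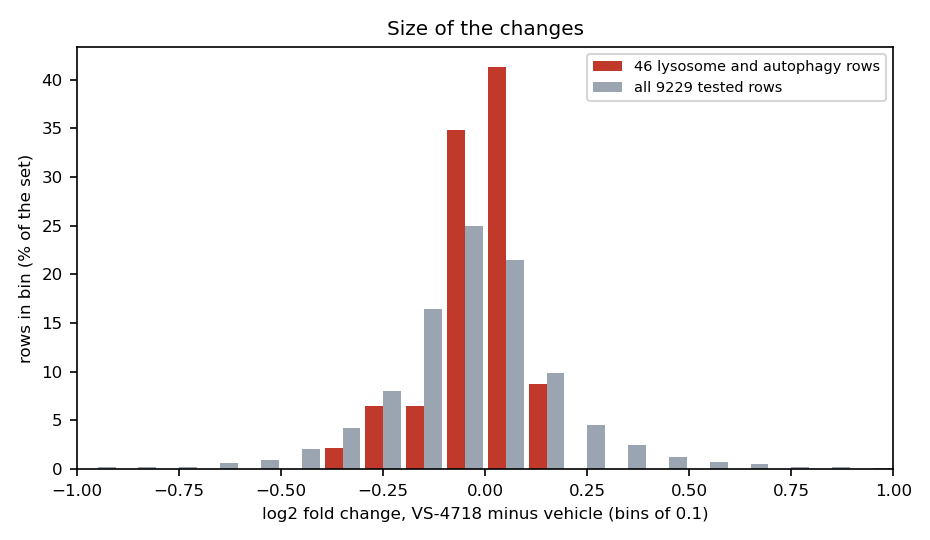
Share of rows (%) in bins of 0.1 log2 fold change, for the 46 lysosome and autophagy rows (red) and all 9229 tested rows (grey). The bins next to 0 hold 34.8% and 41.3% of the 46 rows, against 25% and 21.5% of all rows, and 0.737% of all rows lie outside the axis.

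The factors linked to these genes had overlapping values. TFEB, which enters the nucleus when mTORC1 is off, stood at 4.50, 4.59 and 4.68 log2 units in VS-4718 libraries, against 4.33, 4.48 and 4.90 in vehicle. All VS-4718 values lay inside the vehicle range (log2 fold change 0.02, SE 0.15, adjusted p = 0.98). TFE3, its close relative, stood at 4.46, 4.36 and 4.12 in VS-4718 libraries, against 4.47, 4.25 and 3.96 in vehicle. Here too the groups overlapped (0.09, SE 0.15, adjusted p = 0.87). MITF, the melanocyte member of the family, was not in the set but is given beside them at 5.67 ± 0.20 with VS-4718 and 5.55 ± 0.16 in vehicle (SD, n = 3 each), a difference of 0.12 (SE 0.13). The interval of the difference ran from -0.34 to 0.38 for TFEB, from -0.27 to 0.45 for TFE3 and from -0.18 to 0.42 for MITF.

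The tested genes of the V-ATPase differed by at most 0.23 log2 units. Of 14 tested subunits and accessory proteins 0 passed, 9 had a lower mean and 5 a higher one, with a median log2 fold change of -0.04. ATP6V0B, a V0 proteolipid subunit, stood at 8.64, 8.67 and 8.63 log2 units with VS-4718, against 8.71, 8.76 and 8.74 in vehicle. The groups did not overlap, but the difference was -0.09 (SE 0.036, adjusted p = 0.50), which is -5.97% on the linear scale. ATP6V1H, a regulatory subunit of V1, stood at 6.12, 6.35 and 6.16 with VS-4718, against 6.54, 6.31 and 6.42 in vehicle. VS-4718 replicate 2 lay above the lowest vehicle library (-0.22, SE 0.09, adjusted p = 0.49). ATP6V0A1, a large V0 subunit that lines the proton path, did not overlap either, at 5.15, 5.40 and 5.39 with VS-4718, against 5.73, 5.42 and 5.49 in vehicle (-0.23, SE 0.11, adjusted p = 0.56).

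The remaining pump genes are those left after the pump genes without overlap, and ATP6V1H, were described, and in all of them the groups overlapped. ATP6V0C, the proteolipid that forms most of the rotating ring of V0, was the most abundant of the set at 10.19 ± 0.07 log2 units with VS-4718 and 10.18 ± 0.05 in vehicle (SD, n = 3 each). ATP6V0E, the mouse name of the small V0 subunit that is ATP6V0E1 in human, stood at 7.44 ± 0.01 with VS-4718 and 7.44 ± 0.03 in vehicle. ATP6V0D1, which couples V0 to the central stalk, stood at 4.58 ± 0.05 with VS-4718 and 4.59 ± 0.0034 in vehicle. In V1, the catalytic subunit ATP6V1A stood at 4.28 ± 0.16 with VS-4718 and 4.41 ± 0.24 in vehicle. Its partner in the ATP-binding ring, ATP6V1B2, stood at 6.88 ± 0.08 with VS-4718 and 6.85 ± 0.05 in vehicle. Neither ring subunit differed by more than its SE. The stalk subunits ATP6V1C1, ATP6V1D, ATP6V1E1 and ATP6V1G1 had log2 fold changes of -0.02, -0.08, -0.09 and -0.05. Of these, ATP6V1E1 was the most abundant, at 8.88 ± 0.03 with VS-4718 and 8.97 ± 0.06 in vehicle. Its difference had an SE of 0.045 (limma adjusted p = 0.59). The accessory proteins went the other way, ATP6AP1 with 0.06 (SE 0.09) and ATP6AP2 with 0.09 (SE 0.07). ATP6V1F, another stalk subunit, fell just under the limit for testing, which was a mean of 0.70 log2 units: it stood at 0.58 ± 0.46 with VS-4718 and 0.82 ± 0.09 in vehicle.

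Hydrolases and membrane proteins of the lysosome gave 0 passing genes of 11 tested, 5 with a lower and 6 with a higher mean, and a median log2 fold change of 0.0081. That median was -0.014 without VS-4718 replicate 3 and -0.0034 without vehicle replicate 1. GAA, the acid glucosidase that digests glycogen, stood at 4.57, 4.45 and 4.55 log2 units with VS-4718, against 4.43, 4.36 and 4.21 in vehicle. All 3 VS-4718 values lay above the vehicle values, the lowest of them by a narrow margin (0.19, SE 0.09, adjusted p = 0.56). MCOLN1, a calcium channel of the lysosomal membrane, stood between 5.98 and 6.09 in the 3 libraries with VS-4718, against 5.80, 5.91 and 6.06 in vehicle. Its groups overlapped (0.10, SE 0.08, adjusted p = 0.71). PSAP, which encodes the precursor of the saposins that help lipid hydrolases, had groups that did not overlap at 7.02 ± 0.02 with VS-4718 and 6.97 ± 0.04 in vehicle (SD, n = 3 each), a difference of 0.06 (SE 0.05, adjusted p = 0.73).

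The other tested genes of the hydrolase and membrane group differed by at most 0.04 log2 units. CTSA, a protective carboxypeptidase, was its most abundant row at 8.98 ± 0.03 with VS-4718 and 9.01 ± 0.04 in vehicle (SD, n = 3 each). CTSZ, another carboxypeptidase, stood at 7.56 ± 0.05 with VS-4718 and 7.53 ± 0.07 in vehicle. HEXA, a hexosaminidase subunit that degrades gangliosides, stood at 6.13 ± 0.02 with VS-4718 and 6.14 ± 0.04 in vehicle. NEU1, a sialidase held by CTSA, and TPP1, a peptidase, had log2 fold changes of -0.04 (SE 0.07) and 0.03 (SE 0.10). The membrane glycoproteins LAMP1 and LAMP2 had log2 fold changes of 0.0081 (SE 0.08) and -0.02 (SE 0.06). LAMP2 stood at 5.85 ± 0.04 with VS-4718 and 5.87 ± 0.01 in vehicle, and LAMP1 at 4.07 ± 0.06 with VS-4718 and 4.06 ± 0.05 in vehicle.

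Some rows of abundant lysosomal proteins were close to empty in both groups. The cathepsin proteases CTSB and CTSD stood at -1.54 ± 1.43 and -2.61 ± 1.13 log2 units with VS-4718, against -1.07 ± 1.00 and -1.54 ± 0.13 in vehicle, and CTSL at -2.96 ± 1.41 with VS-4718 and -2.92 ± 1.87 in vehicle (SD, n = 3 each). These 3 were too low to be tested. The transcript index is not given and the row names follow mouse usage. A near-empty row therefore does not show that the cells lacked the RNA of that gene. CD63, a tetraspanin of late endosomes and melanosomes, stood at 3.13, 1.58 and 2.83 with VS-4718, against 2.05, 2.82 and 2.79 in vehicle. A row named as its pseudogene, CD63-PS, was higher at 6.25 ± 0.14 with VS-4718 and 6.27 ± 0.04 in vehicle, and differed by -0.02 (SE 0.08). The 2 rows may share reads, so the level of CD63 is uncertain.

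**Figure D3:**
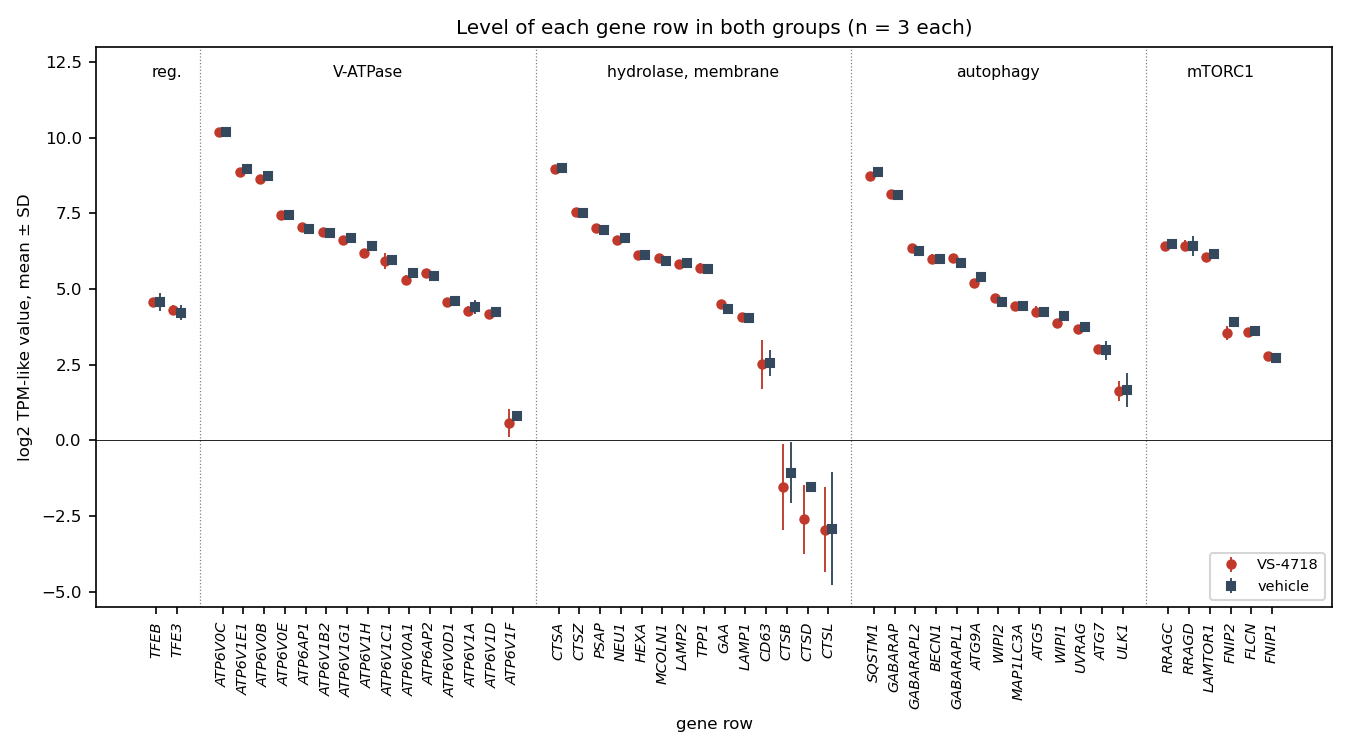
Mean log2 TPM-like value ± SD of each of the 50 gene rows with VS-4718 (circles) and in vehicle (squares), 3 libraries each, by role. Levels run from ATP6V0C at 10.2 to CTSL at -2.9, and the rows of CTSB, CTSD and CTSL are the 3 below 0. The 2 groups lie close together in the tested rows. In rows too low for the test they can lie further apart, as in CTSD (-2.61 with VS-4718, -1.54 in vehicle) and CTSB (-1.54 with VS-4718, -1.07 in vehicle).

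Autophagy genes gave 0 passing genes of 13 tested, with 5 lower and 8 higher means and a median log2 fold change of 0.0032. That median was -0.048 without VS-4718 replicate 3 and -0.034 without vehicle replicate 3. SQSTM1 encodes p62, a receptor that carries cargo into the autophagosome and is itself degraded there. It stood at 8.76, 8.67 and 8.74 log2 units with VS-4718, against 8.91, 8.80 and 8.92 in vehicle. All VS-4718 values lay below all vehicle values, and the difference was -0.15 (SE 0.05, adjusted p = 0.40), or -9.92% on the linear scale. GABARAPL1, which is attached to the growing autophagosome membrane and binds such receptors, went the other way, at 6.01, 6.05 and 6.06 with VS-4718, against 5.79, 5.86 and 5.96 in vehicle. Its groups did not overlap (0.17, SE 0.06, adjusted p = 0.49), a difference of 12.5% on the linear scale.

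The relatives of GABARAPL1 differed less. GABARAP stood at 8.15 ± 0.03 log2 units with VS-4718 and 8.13 ± 0.04 in vehicle, and GABARAPL2 at 6.34 ± 0.12 with VS-4718 and 6.27 ± 0.14 in vehicle (SD, n = 3 each). MAP1LC3A stood at 4.46 ± 0.09 with VS-4718 and 4.46 ± 0.07 in vehicle. Members of this family resemble each other, and their rows may share reads. Of the proteins that bind the phosphoinositide of the forming membrane, WIPI1 stood at 3.90, 3.97 and 3.77 with VS-4718, against 4.07, 4.20 and 4.03 in vehicle. WIPI1 did not overlap between groups (-0.22, SE 0.09, adjusted p = 0.52), whereas WIPI2, its relative, had a difference of 0.13 (SE 0.09) with overlapping values. ATG9A, a scramblase that seeds the membrane, stood at 5.35, 5.18 and 5.08 with VS-4718, against 5.41, 5.33 and 5.45 in vehicle. The highest VS-4718 value of ATG9A lay just above the lowest vehicle value (-0.19, SE 0.09, adjusted p = 0.54).

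The initiation and conjugation genes of autophagy were closer to 0. ULK1, the kinase that starts autophagy and that mTORC1 restrains, was low and variable, at 1.63 ± 0.33 log2 units with VS-4718 and 1.65 ± 0.56 in vehicle (SD, n = 3 each). The interval of its difference, from -0.76 to 0.73, is among the widest of the set. BECN1, of the lipid kinase complex, had a log2 fold change of 0.0032 (SE 0.09). Its partner UVRAG stood at 3.69 ± 0.04 with VS-4718 and 3.75 ± 0.07 in vehicle. ATG5 and ATG7, which attach LC3-like proteins to lipid, had log2 fold changes of 0.02 (SE 0.12) and 0.03 (SE 0.17).

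Of the genes of mTORC1 sensing 0 of 6 tested passed, 4 had a lower mean and 2 a higher one, with a median log2 fold change of -0.06. FNIP2, a partner of folliculin in the complex that switches RagC and RagD, had the largest difference among the 46 tested genes. It stood at 3.65, 3.30 and 3.70 log2 units with VS-4718, against 4.08, 3.77 and 3.86 in vehicle. The groups did not overlap, VS-4718 replicate 2 was the lowest, and the difference was -0.35 (SE 0.14, adjusted p = 0.49), or -21.7% on the linear scale. FNIP1, the other folliculin partner, stood at 2.78 ± 0.02 with VS-4718 and 2.74 ± 0.14 in vehicle, and FLCN, which encodes folliculin, at 3.57 ± 0.05 with VS-4718 and 3.63 ± 0.09 in vehicle (SD, n = 3 each). LAMTOR1, which anchors Ragulator in the membrane, stood at 6.11, 6.05 and 6.04 with VS-4718, against 6.16, 6.14 and 6.15 in vehicle. LAMTOR1 did not overlap either, at a difference of -0.08 (SE 0.05, adjusted p = 0.66). The Rag GTPases RRAGC and RRAGD had log2 fold changes of -0.06 (SE 0.08) and 0.01 (SE 0.17).

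**Figure D4:**
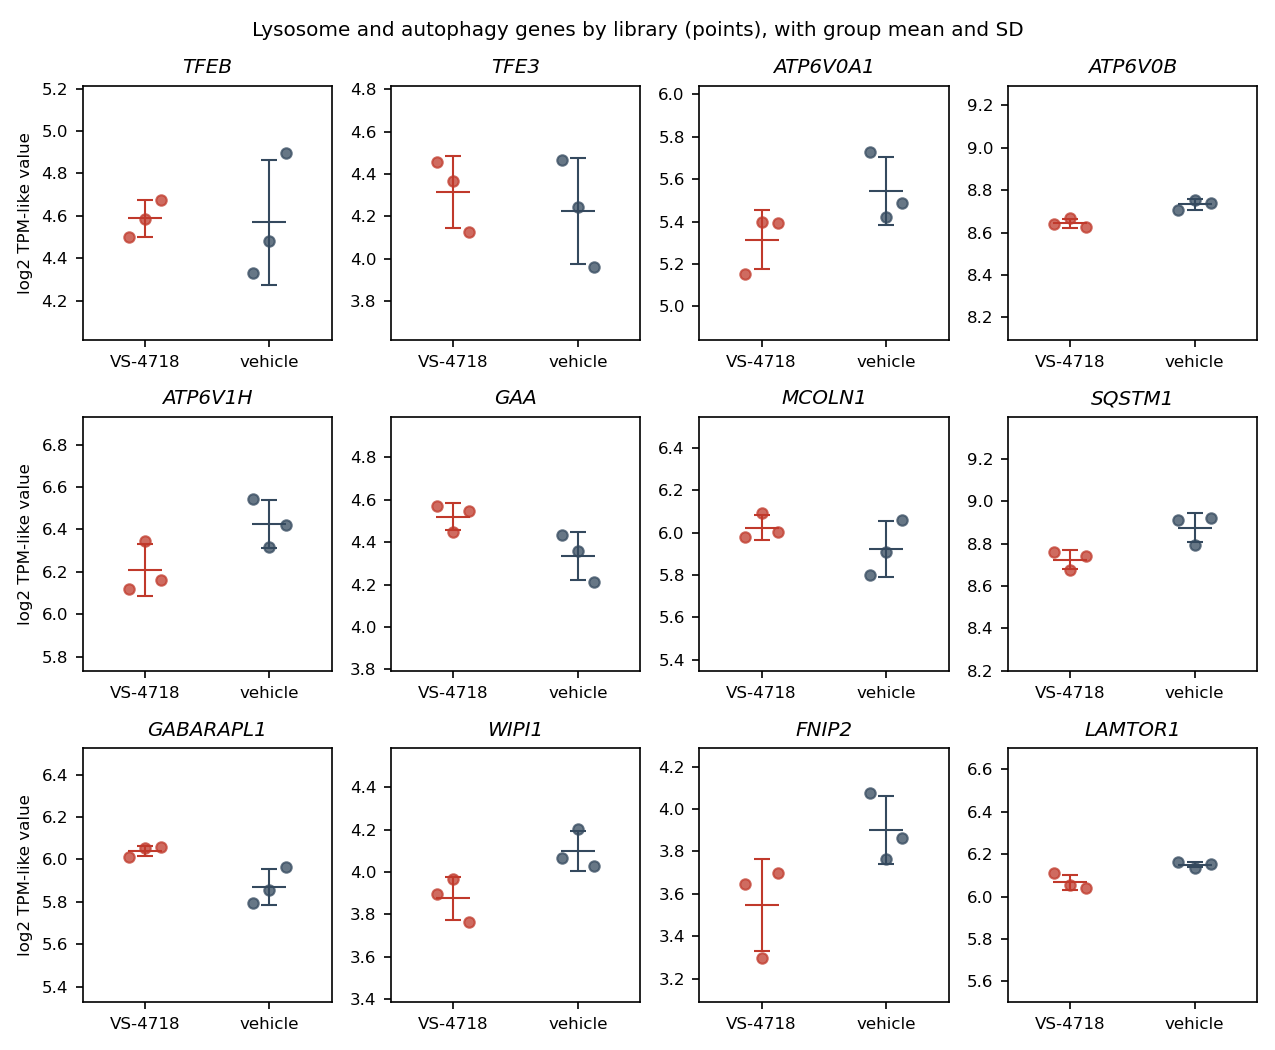
Log2 TPM-like value in each library (points) with group mean and SD, for 12 of the 46 tested genes; VS-4718 stands left of vehicle and each panel spans 1.2 log2 units. The groups do not overlap in ATP6V0A1, ATP6V0B, GAA, SQSTM1, GABARAPL1, WIPI1, FNIP2 and LAMTOR1.

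In all, 9 of the 46 tested genes did not overlap between groups (19.6%), where 16.4% of all tested rows did not. Lower with VS-4718 were ATP6V0A1, ATP6V0B, SQSTM1, WIPI1, FNIP2 and LAMTOR1, which makes 6 genes where 11.2% of all rows were in this class. The 3 higher ones were GAA, PSAP and GABARAPL1, where 5.15% of all rows were. On GRCh38, in GENCODE 29, these protein-coding genes lie apart. PSAP is on chromosome 10, LAMTOR1 on chromosome 11 and ATP6V0A1 on chromosome 17, and the spans of the other genes follow. ATP6V0B is on chromosome 1 from 43974487 to 43978295, FNIP2 on chromosome 4 from 158769138 to 158908049 and SQSTM1 on chromosome 5 from 179806398 to 179838078. GABARAPL1 is on chromosome 12 from 10212458 to 10223130. WIPI1 and GAA are on chromosome 17 as ATP6V0A1 is, from 68420948 to 68457513 and from 80101556 to 80119879. These spans do not begin at the RefSeq starts used for the promoter windows. The ATP6V0B windows printed above therefore lie inside its span here, and the near window of GAA crosses the first base of its span. Each value covers a whole gene, not an exon.

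The differences were also set beside the E-boxes. The 12 tested genes with CACGTG had log2 fold changes between -0.09 and 0.19 with a median of -0.03, and 8 of them had a lower mean. The 23 tested genes with a window that lacked it had a median of 0.02, with 9 lower. Over all tested rows 58.2% had a lower mean, with a median of -0.03. Among genes with CACGTG, the lower ATP6V0D1, CD63, CTSA, NEU1 and RRAGC changed sign under some of the alternative settings given below. So did FNIP1 and LAMP1, which were higher. A link between the E-boxes and the differences was not tested. Of the genes whose sites are printed above, GAA and MCOLN1 had higher means with VS-4718, at 0.19 and 0.10, and ATP6V0B and ATP6V1G1 lower ones, at -0.09 and -0.05. ATP6V0D1, CTSA and LAMP1 lay within 0.03 of 0.

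Other genes of the same pathway were counted from a longer list. Of 178 such genes 140 had a row and 120 were tested. None passed: 0 in either direction, with 9 at an unadjusted p under 0.05 (7.5%, against 9.76% of all rows), of which 4 were lower and 5 higher. Their median log2 fold change was 0.0040, with 59 lower and 61 higher means. SGSH, a sulfatase that digests heparan sulfate, stood at 4.48, 4.54 and 4.60 log2 units with VS-4718, against 4.70, 5.05 and 5.09 in vehicle (-0.41, SE 0.12, adjusted p = 0.36). SESN1, a sestrin that restrains mTORC1, stood at 3.13, 3.09 and 3.21 with VS-4718, against 2.79, 2.61 and 2.76 in vehicle (0.42, SE 0.10, adjusted p = 0.31). Neither gene overlapped between groups, and both differed by more than any of the 46.

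The other pathway genes named by the same rule were likewise short of the threshold. ITFG2, a subunit of the KICSTOR complex that brings an inhibitor of mTORC1 to the lysosome, had a log2 fold change of -0.36 (SE 0.12, adjusted p = 0.40). RB1CC1 and AMBRA1, which work with ULK1 and BECN1 at the start of autophagy, had log2 fold changes of 0.24 (SE 0.09) and 0.42 (SE 0.17). Their adjusted p-values were 0.48 and 0.50. ATP6V0E2, a paralog of the small V0 subunit, had one of 0.37 (SE 0.14, adjusted p = 0.47), at a low level of 2.19 ± 0.16 with VS-4718 and 1.82 ± 0.05 in vehicle (SD, n = 3 each). VMA21, which helps assemble V0, had a log2 fold change of -0.12 (SE 0.09, adjusted p = 0.69). MFSD12, a cysteine transporter of lysosomes and melanosomes, had the largest, at 0.92 (SE 0.38, adjusted p = 0.51), with low values that spread from 0.76 to 1.44 with VS-4718 and from -0.29 to 1.03 in vehicle.

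The 5 genes with an unadjusted limma p under 0.05 kept the sign of their difference when each library was left out and under 6 other settings. Of those settings, only median scaling and the pseudocount could move a fold change. The replicate block, the filters and the fit without trend leave it as it was. The genes were also picked by p in these same libraries, so a kept sign is not separate support for them. Over these 12 alternatives the log2 fold change ran from -0.10 to -0.055 for ATP6V0B, from -0.29 to -0.16 for ATP6V1H and from -0.19 to -0.12 for SQSTM1. It ran from 0.13 to 0.22 for GABARAPL1 and from -0.43 to -0.23 for FNIP2. The smallest adjusted p reached by any of the 5 was 0.37, and FNIP2 was weakest without VS-4718 replicate 2 (-0.23). With each library shifted to a common median, which moves every log2 fold change up by 0.034, all 4 lower genes had an unadjusted p over 0.05 and GAA joined GABARAPL1 below it.

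**Figure D5:**
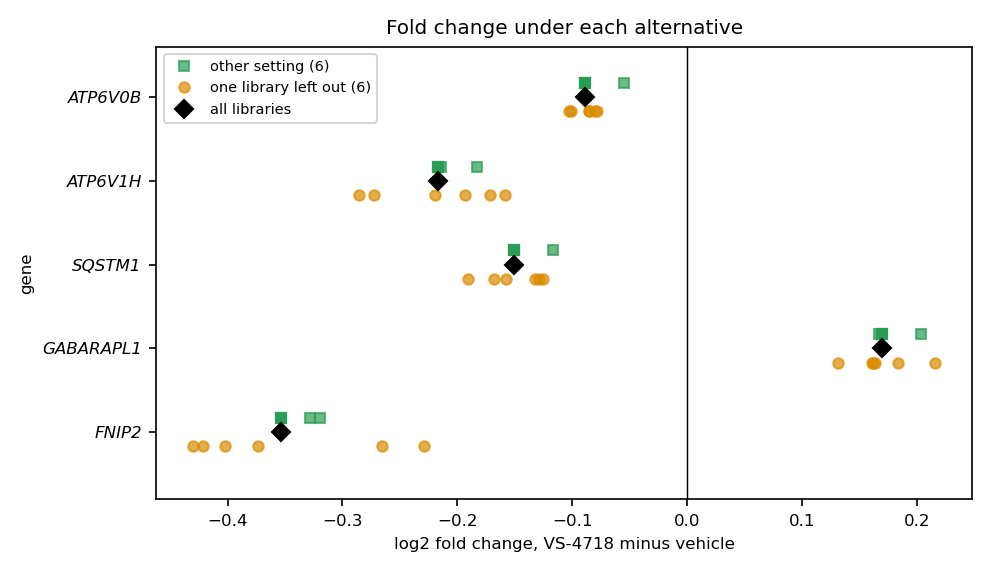
Log2 fold change (VS-4718 minus vehicle) of the 5 genes with an unadjusted p under 0.05, with all libraries (diamonds), with 1 library left out (circles, 6 each) and under 6 other settings (squares). ATP6V0B, ATP6V1H, SQSTM1 and FNIP2 stay left of 0 and GABARAPL1 stays right of it. Among the squares only median scaling and the pseudocount can move a fold change.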

How the data were processed

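Total RNA of 92.1 cells was sequenced in 3 VS-4718 and 3 vehicle libraries. Per the submitters' processing notes, kallisto (no version) and GRCh38 were used; the transcript index, strand setting and row filters: not given in the sources used here. Each deposited value is a log2 level for a gene symbol, and its TPM-like scale was read from the column sums. Such a scale carries no read depth, and counting intervals cannot be given. Of the 50 rows used, 49 carried a current human symbol and ATP6V0E a synonym of ATP6V0E1.

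Rows with a mean above the lowest 25% (over 0.70 log2 units) were tested with limma 3.58.1 in R 4.3.3 (linear model with group as the only term, mean-variance trend, two-sided, Benjamini-Hochberg over 9229 rows, threshold 0.05). Intervals are limma's 95% intervals, unadjusted. An exact permutation of 3 against 3 cannot go below 0.1, so no such test was run. The genes, lists and settings were chosen with earlier results of these data known. Per-library values were given for TFEB, TFE3, genes with an unadjusted p under 0.05 and at least 2 genes of smallest p per role; those of ATP6V0A1, WIPI1, ATG9A and CD63, and the means of PSAP, were picked after values were seen. From the longer list, MITF and up to 2 genes of smallest p per role were named. The fitting code was first tested on simulated data, with known changes put into rows drawn from all tested rows. At an adjusted limma p under 0.05 it recovered 35.8% of rows changed by 0.5 log2 units and 79.1% of those changed by 1. Smaller changes can therefore be missed. Settings varied were the replicate block, the library left out, median scaling, no filter, a stricter filter (lowest 40% left out), no trend and a pseudocount of 1. Figures were drawn with matplotlib 3.10.9.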

Additional observations from a re-analysis of the deposited data

How the results depend on the processing

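None of the 46 tested genes passed an adjusted p of 0.05 under any of the 12 alternatives, nor did any of the 50 without a filter. ULK1 was tested in 11 of the 12, as it fell below the stricter filter. The number at an unadjusted p under 0.05 was less stable: it was 5 (4 lower, 1 higher), but 2 (2 lower, 0 higher) with the replicate block, 2 (0 lower, 2 higher) with median scaling and 2 (2 lower, 0 higher) in limma without trend. It ran from 0 to 4 (0 to 4 lower, 0 to 1 higher) with a library left out, and was 0 without vehicle replicate 1. The 12 called rows of the whole table became 0 with the replicate block (793 at an unadjusted p under 0.05), 0 without trend (910) and 0 to 7 with a library left out; the cause was not tested. Residual correlations of same-numbered libraries were 0.135, 0.0547 and 0.0316, against -0.0938 to 0.0491 for other pairs. The best partner of VS-4718 replicate 3 was vehicle replicate 2 (0.0491 against 0.0316). Read from the vehicle side, each library had its best partner in the VS-4718 library of the same number. These values do not settle whether the libraries were paired, and the main fit did not take the numbers as a pairing. Over the 12 alternatives the median log2 fold change stayed positive for the regulators (0.038 to 0.088) and negative for the V-ATPase (-0.051 to -0.0057) and mTORC1 sensing (-0.090 to -0.026). It crossed 0 for the hydrolase and membrane genes (-0.014 to 0.042) and for autophagy (-0.048 to 0.077, the highest without VS-4718 replicate 2). In the main fit the median over all tested rows was -0.03, near the -0.04 of the V-ATPase. Median scaling gave the values nearest 0 for the V-ATPase (-0.0057) and mTORC1 sensing (-0.026). The replicate block and the fit without trend cannot move these medians.

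Signs near 0 reversed in 24 of the 46, never for a gene with an unadjusted p under 0.05. Genes of small p were picked from these same libraries, so that difference follows largely from the choice. With a library left out, log2 fold changes ran across 0 for ATG5 (-0.087 to 0.090), ATG7 (-0.10 to 0.20), ATP6V0C (-0.021 to 0.052), ATP6V0D1 (-0.034 to 0.013), ATP6V0E (-0.011 to 0.021), ATP6V1A (-0.23 to 0.0052), ATP6V1B2 (-0.014 to 0.060), ATP6V1C1 (-0.15 to 0.11), BECN1 (-0.078 to 0.077), CD63 (-0.34 to 0.43), CTSZ (-0.0028 to 0.069), FNIP1 (-0.029 to 0.11), HEXA (-0.021 to 0.015), LAMP1 (-0.014 to 0.042), LAMP2 (-0.039 to 0.0045), MAP1LC3A (-0.048 to 0.040), NEU1 (-0.086 to 0.012), RRAGC (-0.12 to 0.016), RRAGD (-0.16 to 0.17), TFE3 (-0.041 to 0.21), TFEB (-0.10 to 0.18), TPP1 (-0.064 to 0.088) and ULK1 (-0.34 to 0.20). Median scaling turned ATP6V0D1 (0.021), ATP6V1C1 (0.0090), CTSA (0.0096), LAMP2 (0.014), HEXA (0.026) and ULK1 (0.014) positive. Depth is unknown; CTSB, CTSD, CTSL and ATP6V1F were too low for the test and CD63 and ULK1 too variable for a close estimate.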
